A study of Mus musculus with 25 samples.

Results

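The genes described here are the mouse cytochrome P450s of families 2, 3 and 4. They were taken as the array genes whose symbol is Cyp2, Cyp3 or Cyp4 followed by subfamily letters and a number, which gave 70 of the 37008 genes on the array, in 20 subfamilies. Each gene was read through 1 probe, the one with the highest mean over the 25 arrays. RNA came from perigonadal white adipose tissue (pgWAT) of male C57BL6/J mice, and each array held 1 sample. The ChREBPβ line gave 7 WT and 6 ChREBPβ KO samples, the knockouts lacking exon 1b of Mlxipl in the whole body after CRISPR/Cas9 deletion. The total ChREBP line gave 7 WT and 5 total ChREBP KO samples, the knockouts lacking both the α and the β isoform in the whole body. All groups had been fasted for 24 h and then refed for 18 h with 20% glucose in the drinking water, so no fasted or unfed sample stands beside them. Mice came from several litters, their age is not given in the sources used here, and the ChREBPβ deletion was carried by a pair of derived lines that the labels do not tell apart.

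P450s of these families are membrane-bound monooxygenases of the endoplasmic reticulum. They take electrons from the reductase Por and hold a heme whose synthesis starts with Alas1. Families 2 and 3 oxidise drugs, steroids and many small molecules, and several Cyp2c and Cyp2j enzymes make epoxides from arachidonic acid. Family 4 hydroxylates the far end of fatty acids and eicosanoids. Most of the liver's drug metabolism runs through a part of these enzymes, whereas others, such as Cyp2r1, Cyp2s1 and Cyp2u1, are known from many tissues outside the liver. Alb, the gene of serum albumin, is made by hepatocytes, and its level was used here to sort the members.

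Promoters of members that differed in their relation to Alb are shown first, because a core promoter motif was unequally present between them. Each is the 250 bases upstream of the RefSeq start on the GRCm38.p6 build, written on the strand of the gene, and positions are counted back from the start. Capitals mark exact matches to TATAAA (the TATA box), GTTAAT (the core of the HNF1 site) or CACGTG (an E-box), searched on both strands, so that ATTAAC and TTTATA are the same motifs on the other strand.

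Cyp2c29, an arachidonic acid epoxygenase of liver (chr19:39286835-39287084, plus strand), with TATAAA at -19: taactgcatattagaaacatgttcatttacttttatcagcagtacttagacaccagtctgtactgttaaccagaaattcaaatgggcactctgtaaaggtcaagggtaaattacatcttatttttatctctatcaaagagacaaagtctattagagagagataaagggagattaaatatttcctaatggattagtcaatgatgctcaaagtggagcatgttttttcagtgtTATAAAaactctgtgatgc
Cyp2d26, a liver P450 of the debrisoquine hydroxylase group (chr15:82794246-82794495, minus strand), with GTTAAT at -90 and TATAAA at -31: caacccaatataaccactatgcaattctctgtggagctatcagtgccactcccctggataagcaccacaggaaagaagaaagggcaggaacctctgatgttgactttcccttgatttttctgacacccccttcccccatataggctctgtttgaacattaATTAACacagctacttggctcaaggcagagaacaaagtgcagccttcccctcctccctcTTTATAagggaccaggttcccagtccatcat
Cyp2e1, the ethanol-inducible P450 (chr7:140763569-140763818, plus strand), with TATAAA at -31: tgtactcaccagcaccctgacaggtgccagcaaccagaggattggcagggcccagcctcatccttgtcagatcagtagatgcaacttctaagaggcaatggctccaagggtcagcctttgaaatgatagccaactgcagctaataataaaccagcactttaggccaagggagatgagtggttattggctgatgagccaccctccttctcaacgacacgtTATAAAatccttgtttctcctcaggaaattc
Cyp4v3, the counterpart of the human CYP4V2 gene of crystalline retinal dystrophy (chr8:45333164-45333413, minus strand), with CACGTG at -171: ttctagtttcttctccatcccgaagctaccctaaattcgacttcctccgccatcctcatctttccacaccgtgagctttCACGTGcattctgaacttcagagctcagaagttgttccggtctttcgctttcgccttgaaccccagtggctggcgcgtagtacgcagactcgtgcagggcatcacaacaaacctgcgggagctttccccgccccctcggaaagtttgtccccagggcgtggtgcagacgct

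Promoter windows of 300 bases (250 upstream and 50 downstream of a start) were found for 57 of the 70 members. TATAAA stood in 18 of the 30 windows (60%) of the members that tracked Alb, as defined below, and in 13.6% of all 32851 windows. GTTAAT stood in 7 of these 30 windows (23.3%) against 7.1% of all windows, and CACGTG in none against 7.15%. Among the 18 windows of members that did not track Alb, 3 held TATAAA, those of Cyp2e1, Cyp2c55 and Cyp2c66, none held GTTAAT, and the window of Cyp2j6 held CACGTG. Of the 5 windows of members in between these classes, that of Cyp4v3 held CACGTG, and TATAAA and GTTAAT were absent. Windows of members that were not tested, listed below, are outside these class counts. Among them, Cyp2c39, Cyp2c65 and Cyp3a44 held TATAAA, Cyp4f40 held GTTAAT, and the others held no such motif. Genes of a subfamily share sequence by descent, so these windows are not independent, and a match is a run of letters and not a measured binding site.

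P450 genes also share coding sequence, and 5 of the 60 probes tested shared a run of at least 20 bases with a probe of another gene, 4 of them with another member. The windows below come from the closest pairs of probes, with 30 bases each and the differing bases in capitals. They show pairs whose levels cannot be assigned to 1 gene with certainty. Probes were compared with other probes on the array and not with whole transcripts. A probe without such a run is therefore not shown to read 1 gene only.

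Cyp2c67: acAcagtcccagAaattccatctatattcc
Cyp2c68: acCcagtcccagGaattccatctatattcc
Cyp3a25: gtgtcaagagataaacccagaactggaTcA
Cyp3a57: gtgtcaagagataaacccagaactggaCcG

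The aligned Cyp2c67 and Cyp2c68 probes differed at 4 of 59 bases, and their levels had a Pearson r of 0.998 over the 25 arrays. The Cyp3a25 and Cyp3a57 probes differed at 3 of 52 aligned bases, and r was also 0.998. Values of these genes are given with this limit. The brightest Cyp2u1 probe held the repeat gtgtgtgtgtgtgtgtgtgt (positions 13 to 32 of the probe), which stood in the probes of 47 other genes, and its level was therefore not read as that of Cyp2u1 alone.

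Levels are log2 intensities after quantile normalisation, comparable between samples for 1 probe and not between probes. Raw array medians were 84 to 127 with a local background of 15 to 22, and 73.0 to 77.9% of spots stood well above background. Values of r between arrays of a group lay between 0.971 and 0.997. The number of arrays, and not a read depth, limits the precision. The Mlxipl probe was read as a check of the labels. Its difference was -1.75 ± 0.15 (SE, adjusted p = 3.17e-08) in total ChREBP KO. In ChREBPβ KO it was -0.73 ± 0.14 (adjusted p = 0.14) and did not pass the test. KO and WT samples did not overlap in either line, and 3.2% of all genes tested were lower without overlap in the total ChREBP line. Mean WT levels of Mlxipl were 15.08 in the ChREBPβ line and 15.96 in the total ChREBP line. Which part of the transcript this probe reads was not worked out. Mlxipl lies on chromosome 5, where Cyp2w1 is 4.22 Mb and the Cyp3a members are 10.54 to 11.31 Mb away.

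Alb set the arrays far apart before any genotype was compared. Its lowest, median and highest levels were 14.88, 17.25 and 17.65 in ChREBPβ WT, 13.59, 16.02 and 17.48 in ChREBPβ KO and 10.49, 12.09 and 15.30 in total ChREBP WT pgWAT. The total ChREBP KO samples gave 10.65, 10.48, 10.59, 10.53 and 10.81. The WT mice of the total ChREBP line had lower Alb than those of the ChREBPβ line by -4.13 ± 0.69 (SE, adjusted p = 0.00027). Within the lines the difference was -0.75 ± 0.72 (adjusted p = 0.821) for ChREBPβ KO and -1.94 ± 0.76 (adjusted p = 0.13) for total ChREBP KO. In bulk tissue, fewer cells of a type and less RNA per cell cannot be told apart.

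The 12 hepatocyte markers include Alb itself, and the others moved like it. All 12 were lower in WT mice of the total ChREBP line than of the ChREBPβ line (median -4.78). Of all genes tested, 8.74% were called lower there. In total ChREBP KO 1 (Fgb) was lower, where 9.41% of all genes tested were called in either direction. In ChREBPβ KO 0 were called, where 0.00777% of all genes tested were. The mean level of the 12 markers ran from 12.01 to 15.8 in ChREBPβ WT and 10.6 to 15.2 in ChREBPβ KO samples. It ran from 7.37 to 12.8 in total ChREBP WT and 7.01 to 7.99 in total ChREBP KO samples. The 8 adipocyte markers, which check the labelled tissue, had means of 15.6 to 15.9, 15.7 to 16.1, 15.5 to 15.9 and 15.9 to 16.0 in the same order. Of 8 kidney tubule markers 5 were detected well enough to be tested. Of these, 3 (Slc34a1, Slc22a6 and Miox) were lower between the WT groups, beside the same 8.74% of all genes. The others, Cdh16 and Aqp2, gave 1.54 and 0.05 and were not called, and the median over the 5 was -1.53. Of 8 epididymis and vas deferens markers 2 were tested. Rnase10 gave -0.18 and was not called, and 1, Adam7, was higher by 3.73 between the WT groups. There, 22.2% of all genes tested were called in either direction. Of 4 tested testis markers 0 were called. The part of other cells' RNA in the P450 levels was not tested.

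Of the 70 members, 60 passed the filter on dim probes, 32 because they were detected on at least 21 of the 25 arrays and 28 only because they were detected on at least 75% of the arrays of 1 group. The other 10, Cyp2b13, Cyp2b23, Cyp2c39, Cyp2c65, Cyp2g1, Cyp2j11, Cyp3a44, Cyp4a29, Cyp4f37 and Cyp4f40, were not tested. Members were then sorted by their Pearson r with Alb over the 25 arrays. This sorting belongs to the choice of genes and carries no test. An r of at least 0.8 was called tracking, and an r below 0.5 both as measured and in the residuals after group and wash batch was called not tracking. Over all 25749 other tested genes, 470 (1.83%) had an r of at least 0.8.

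32 members tracked Alb, with r from 0.81 to 0.99 and Spearman's rho from 0.85 to 0.99. Without the pair of arrays farthest from the median Alb level, r stayed between 0.81 and 0.99. The relation was also present within groups: the residual r had a median of 0.92 (0.72 to 0.97). It ran from 0.82 to 0.98 over the ChREBPβ line alone and from 0.64 to 0.98 over the total ChREBP line alone. 7 members lay in between and 21 did not track Alb, with r from -0.56 to 0.40 and residual r from -0.55 to 0.37. Just inside the threshold were Cyp2d13 (0.81), Cyp2d11 (0.90) and Cyp4f15 (0.90), and just outside it Cyp4a14 (0.79), Cyp2d34 (0.79) and Cyp4v3 (0.78).

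The split followed subfamilies only in part. All 4 Cyp2a and all 5 tested Cyp3a members tracked Alb, as did 11 of 13 tested Cyp2c, 7 of 9 Cyp2d and 2 of 3 tested Cyp4a members. Only 2 of 7 tested Cyp4f members did, Cyp4f14 and Cyp4f15, and 1 of 5 tested Cyp2j members, Cyp2j5. None of the 3 tested Cyp2b members tracked Alb, nor did any of the sole members of the Cyp2ab, Cyp2e, Cyp2f, Cyp2r, Cyp2s, Cyp2t, Cyp2u, Cyp2w, Cyp4b, Cyp4v and Cyp4x subfamilies. Cyp2c55, Cyp2c66 and Cyp2d22 did not track Alb although most of their subfamily did, and Cyp4f13, Cyp4f16, Cyp4f18 and Cyp4f39 were the Cyp4f members that did not.

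**Figure D1:**
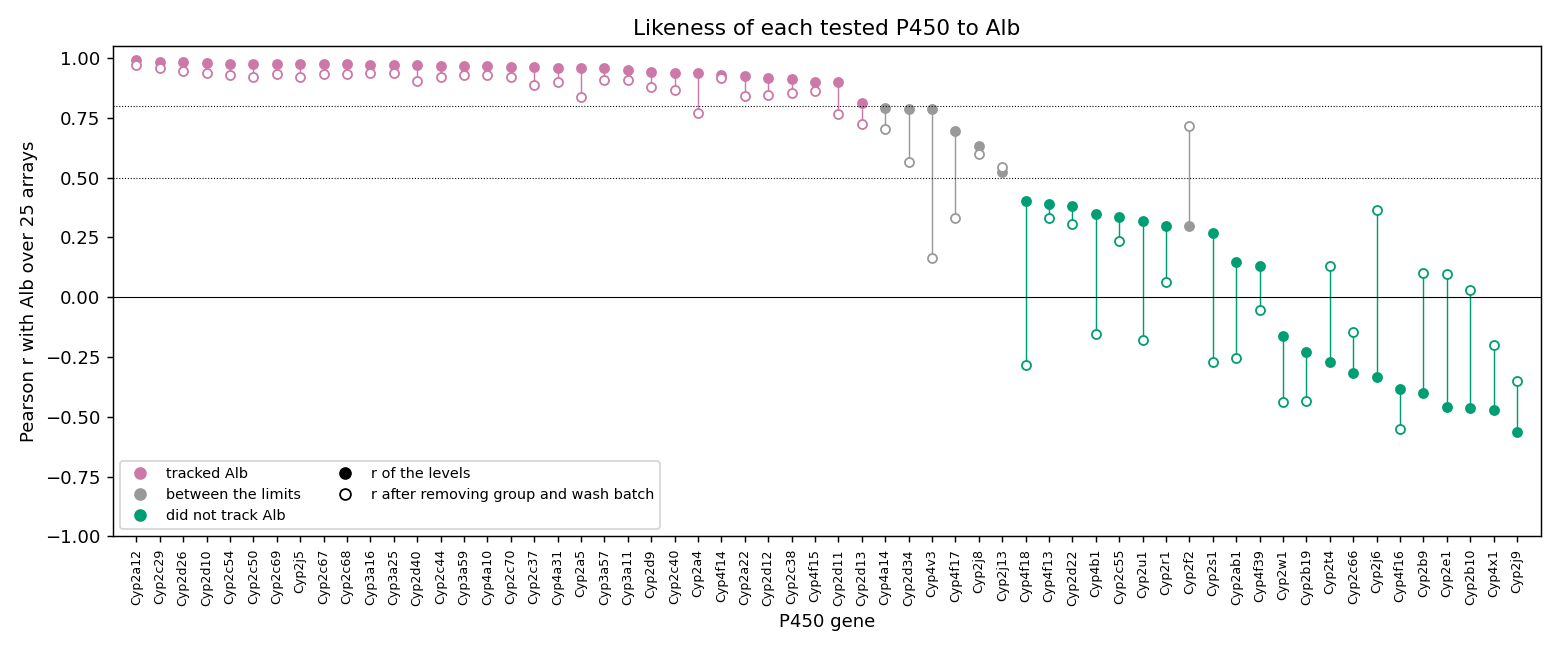
Pearson r with the log2 level of Alb for each of the 60 tested P450 genes over the 25 arrays, as measured and after group and wash batch were removed, with genes coloured by class. The 32 tracking members lie at 0.81 or above on the first measure and between 0.72 and 0.97 on the second. Cyp2f2 (0.30 and 0.71) and Cyp4v3 (0.78 and 0.17) are the members in between for which the measures part most.

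Members that tracked Alb spanned a wide range. From the lowest to the highest array, a tracking member covered a median of 8.14 log2 units (2.73 to 10.4). For a member that did not track, the median was 0.97 (0.46 to 3.39). Some of the latter were dim, namely Cyp2ab1, Cyp2b19, Cyp2c66, Cyp4f39 and Cyp4x1, with raw log2 means of 4.82 to 5.04. Their ranges are not read as steady expression. The mean of the 32 tracking members was 8.95 to 12.97 in ChREBPβ WT, 7.24 to 11.95 in ChREBPβ KO, 5.48 to 8.87 in total ChREBP WT and 5.43 to 5.60 in total ChREBP KO samples. The 5 total ChREBP KO samples thus lay together at the low end, and the other groups were spread. The mean of the 21 other members was 8.40 to 8.75, 8.47 to 8.59, 8.44 to 8.70 and 8.60 to 8.76 in the same order, and these ranges overlap. Among the 496 pairs of tracking members the median r was 0.98 (0.81 to 0.999).

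**Figure D2:**
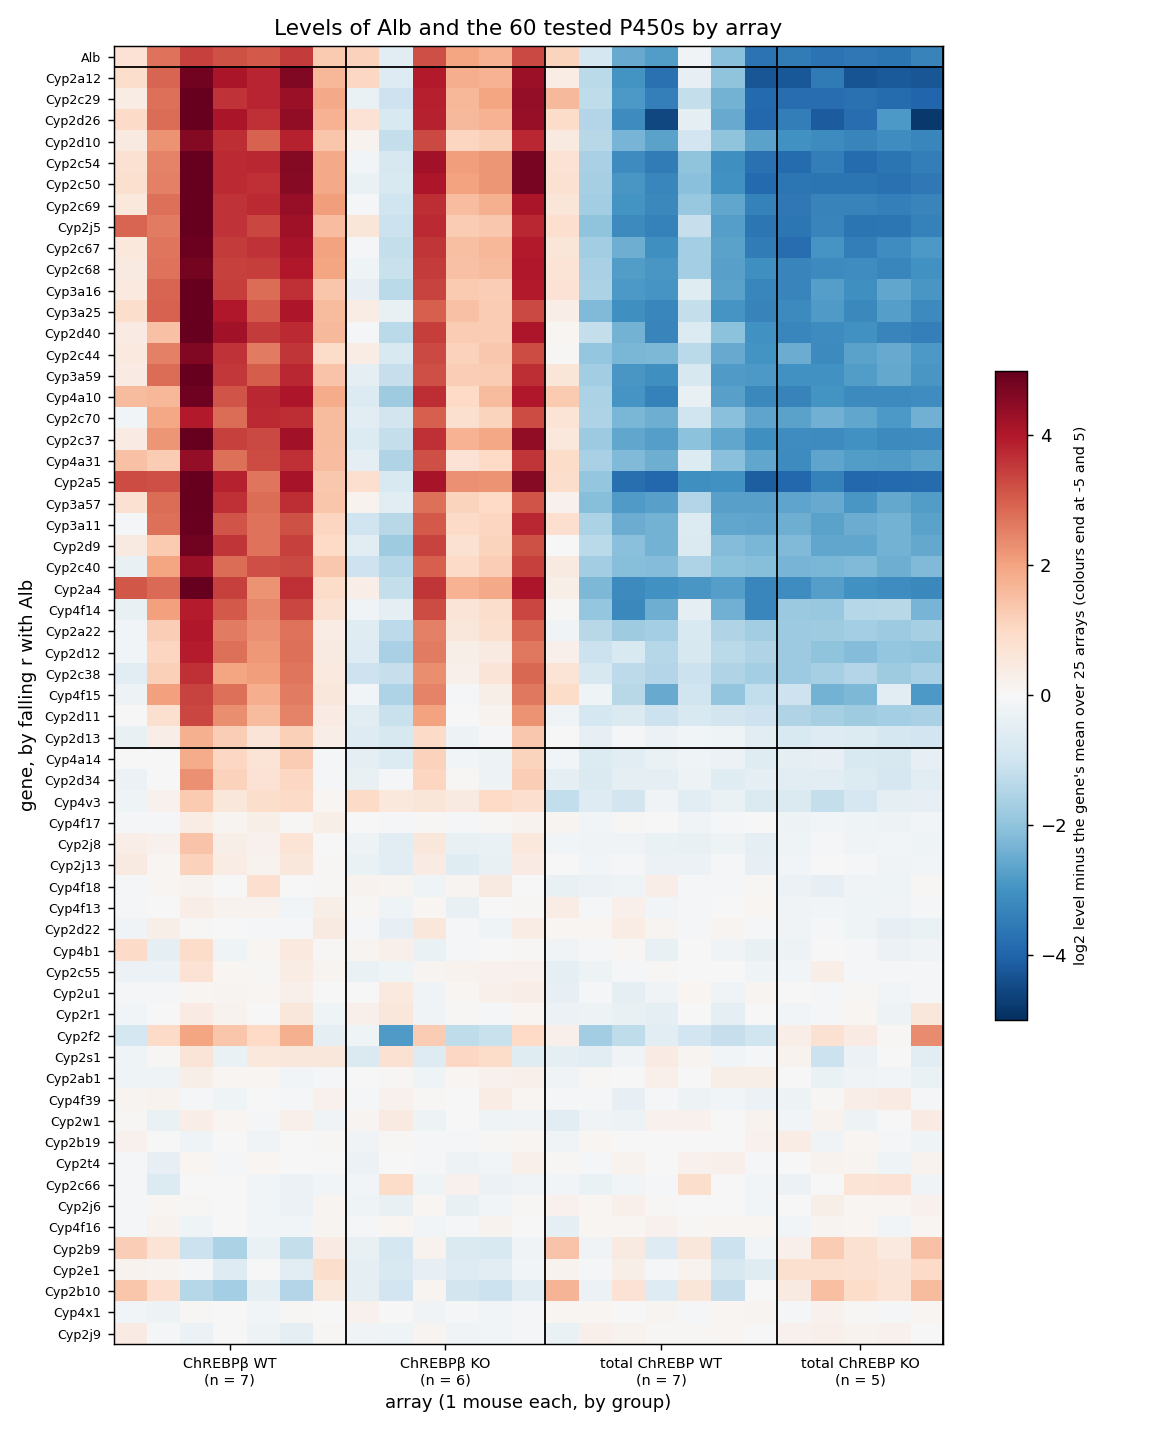
Heat map of Alb and the 60 tested P450 genes (lines) over the 25 arrays (columns, by group), each value as its log2 deviation from the gene's mean, with colours that end at 5 units on either side. Tracking members are high in most ChREBPβ line arrays and low in the 5 total ChREBP KO arrays, whereas members that do not track Alb vary over a median of 0.97 units.

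The wild-type mice of the lines were compared first, because they carry no Mlxipl deletion and show what the lines differ in besides it. 40 members were lower in WT pgWAT of the total ChREBP line than of the ChREBPβ line and 0 were higher, in a comparison that called 22.2% of all genes tested and 8.74% as lower. With no filter on dim probes 39 of all 70 members were called, against 14.4% of all genes. The 32 tracking members were all lower, with a median difference of -4.75 (-6.25 to -0.97), and the 7 members in between had a median of -1.09. The tracking members had been sorted by Alb, which itself differed by -4.13 between these groups, and 16 of them passed the filter on dim probes through 1 group only, so their count and median describe the sorted genes and support nothing further. Only 11 of the 32 were detected on all 7 total ChREBP WT arrays. Of the 21 members that did not track Alb 1 was lower, Cyp2r1. The all-gene median was 0.04. Other kept probes gave smaller differences than the probe read for Cyp2c44 (-2.29), Cyp2c50 (-1.30), Cyp2d26 (-2.99), Cyp2j5 (-1.87) and Cyp4a10 (-2.09 and -3.61). For Cyp2d13 the other probe gave a larger one (-1.51). Each of these probes was also called lower. In 20 members the WT groups did not overlap, all of them lower, where 2.13% of all genes tested were lower without overlap. Of these 20, 17 belonged to the tracking class and 10 passed the filter through 1 group only, and the count is a description for the same reason.

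In the Cyp2a subfamily, Cyp2a5 is the coumarin hydroxylase of liver and Cyp2a4 a steroid hydroxylase. Levels of Cyp2a5 (lowest, median and highest) were 10.53, 12.43 and 15.42 in ChREBPβ WT, 8.41, 11.43 and 13.73 in ChREBPβ KO and 5.04, 6.10 and 10.05 in total ChREBP WT pgWAT. For Cyp2a5 the total ChREBP KO samples gave 5.25, 5.80, 5.25, 5.30 and 5.31. Values of the genes below are given in the same order of lowest, median and highest. Samples of the ChREBPβ line were the high ones and the WT groups did not overlap. The difference between WT groups was -6.25 ± 0.83 (SE, adjusted p = 3.5e-05), with -8.91, -5.14, -6.74 and -3.65 in the 4 wash batches. The levels of Cyp2a4 were 9.57, 11.76 and 14.50 in ChREBPβ WT, 7.44, 10.46 and 12.70 in ChREBPβ KO and 5.38, 5.73 and 8.94 in total ChREBP WT samples, and the total ChREBP KO samples gave 5.54, 5.90, 5.63, 5.54 and 5.42. The groups of WT mice were again apart, by -5.59 ± 0.74 (SE, adjusted p = 3.39e-05). Cyp2a12, a P450 of liver, had levels of 9.62, 12.54 and 13.58 in ChREBPβ WT and 8.11, 10.52 and 13.03 in ChREBPβ KO samples. They were 4.47, 6.74 and 9.13 in total ChREBP WT samples. The total ChREBP KO samples gave 4.50, 5.23, 4.43, 4.56 and 4.49, and Cyp2a12 was detected on none of these arrays. It differed by -5.31 ± 0.81 (SE, adjusted p = 0.000135) between the WT groups. The fourth member, Cyp2a22, gave -3.16 ± 0.60 (SE, adjusted p = 0.000765).

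The Cyp2c subfamily holds the arachidonic acid epoxygenases of liver and was the largest here, with 13 tested members. Levels of Cyp2c29 (lowest, median and highest) were 8.98, 12.18 and 13.78 in ChREBPβ WT, 7.55, 10.41 and 12.997 in ChREBPβ KO and 4.71, 6.23 and 10.21 in total ChREBP WT pgWAT. For Cyp2c29 the total ChREBP KO samples gave 4.77, 4.77, 4.86, 4.76 and 4.61. Every ChREBPβ WT value but the lowest exceeded every total ChREBP WT value. The WT groups differed by -5.05 ± 0.88 (SE, adjusted p = 0.000409), with -7.53, -4.0, -4.13 and -4.0 by wash batch. Cyp2c44, another epoxygenase, had levels of 8.50, 10.63 and 12.63 in ChREBPβ WT, 7.27, 9.26 and 11.32 in ChREBPβ KO and 5.04, 5.76 and 8.07 in total ChREBP WT samples, and the total ChREBP KO samples gave 5.52, 4.82, 5.34, 5.49 and 5.16. The WT groups of Cyp2c44 did not overlap and differed by -4.51 ± 0.64 (SE, adjusted p = 6.8e-05). Cyp2c70, which makes muricholic acids in mouse bile, had levels of 9.31, 12.22 and 13.39 in ChREBPβ WT, 8.51, 10.38 and 12.69 in ChREBPβ KO and 6.80, 7.36 and 10.13 in total ChREBP WT samples, and the total ChREBP KO samples gave 6.76, 7.03, 6.83, 6.58 and 7.03. The WT groups of Cyp2c70 differed by -4.12 ± 0.67 (SE, adjusted p = 0.000231).

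The other Cyp2c members that tracked Alb behaved alike. Cyp2c50 and Cyp2c54 differed between WT groups by -5.49 ± 0.83 (SE, adjusted p = 0.000127) and -5.53 ± 0.83 (SE, adjusted p = 0.000115), without overlap. The probes of Cyp2c37 and Cyp2c40 were detected on 3 of the 7 total ChREBP WT arrays. Cyp2c37 differed by -4.93 ± 0.78 (SE, adjusted p = 0.000183), Cyp2c40 by -3.98 ± 0.69 (SE, adjusted p = 0.000386) and Cyp2c38 by -2.67 ± 0.61 (SE, adjusted p = 0.00362). Cyp2c67, Cyp2c68 and Cyp2c69 differed by -5.13 ± 0.75 (SE, adjusted p = 9.24e-05), -5.0 ± 0.74 (SE, adjusted p = 9.59e-05) and -5.33 ± 0.76 (SE, adjusted p = 7.17e-05), and the first pair of these shares most of its probe sequence, as printed above. In total ChREBP KO samples Cyp2c40, Cyp2c50, Cyp2c54, Cyp2c68 and Cyp2c69 were not detected on any array. The WT levels of Cyp2c69 ran from 8.37 to 12.90 in the ChREBPβ line and from 4.47 to 8.47 in the total ChREBP line.

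Cyp2d genes belong to the debrisoquine hydroxylase group, and Cyp2d9 is known as a testosterone hydroxylase of male liver. The levels of Cyp2d9 were 8.06, 10.33 and 12.43 in ChREBPβ WT, 5.83, 8.56 and 10.98 in ChREBPβ KO and 5.26, 5.53 and 7.59 in total ChREBP WT samples, and the total ChREBP KO samples gave 5.41, 5.02, 5.02, 5.25 and 5.06. Its WT groups did not overlap and differed by -4.03 ± 0.70 (SE, adjusted p = 0.000387). Cyp2d26, whose promoter with both motifs is printed above, had levels of 11.93, 14.63 and 16.00 in ChREBPβ WT, 10.20, 12.65 and 15.30 in ChREBPβ KO and 6.42, 8.45 and 11.88 in total ChREBP WT samples, and the total ChREBP KO samples gave 7.52, 6.81, 7.17, 8.08 and 6.15. The WT groups of Cyp2d26 also lay apart, by -5.40 ± 0.86 (SE, adjusted p = 0.000187). Cyp2d10 and Cyp2d40 differed by -4.39 ± 0.70 (SE, adjusted p = 0.00018) and -4.64 ± 0.78 (SE, adjusted p = 0.000282), without overlap. Cyp2d11, Cyp2d12 and Cyp2d13 differed less, by -2.35 ± 0.47 (SE, adjusted p = 0.00121), -2.80 ± 0.58 (SE, adjusted p = 0.00173) and -0.97 ± 0.29 (SE, adjusted p = 0.0209).

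Cyp3a11 is the major drug-oxidising Cyp3a of mouse liver. Levels of Cyp3a11 (lowest, median and highest) were 8.28, 11.12 and 13.32 in ChREBPβ WT, 7.0, 9.40 and 12.17 in ChREBPβ KO and 5.75, 6.02 and 9.22 in total ChREBP WT pgWAT. For Cyp3a11 the total ChREBP KO samples gave 5.95, 5.71, 5.90, 6.03 and 5.70. The ChREBPβ WT samples were the high ones and overlapped with total ChREBP WT samples at their low end. The WT groups differed by -4.16 ± 0.78 (SE, adjusted p = 0.000743). The remaining Cyp3a members gave -4.92 ± 0.62 (SE, adjusted p = 2.24e-05) for Cyp3a57, -5.35 ± 0.68 (SE, adjusted p = 2.29e-05) for Cyp3a25, -4.81 ± 0.77 (SE, adjusted p = 0.000186) for Cyp3a59 and -4.70 ± 0.80 (SE, adjusted p = 0.000332) for Cyp3a16. Cyp3a57 was detected on 2 of the 7 total ChREBP WT arrays and Cyp3a25 and Cyp3a59 on 3 each. These differences therefore rest partly on arrays without detection. By wash batch the Cyp3a57 difference was -7.14, -4.90, -4.32 and -3.33. Cyp3a25 and Cyp3a57, whose WT groups did not overlap, are the pair with nearly the same probe sequence.

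Cyp4a genes encode fatty acid ω-hydroxylases that are known targets of the fatty acid receptor Ppara, and Cyp2j5 is an epoxygenase of kidney and liver. The levels of Cyp4a10 were 9.19, 10.77 and 12.47 in ChREBPβ WT, 5.85, 8.92 and 11.64 in ChREBPβ KO and 4.24, 4.93 and 8.93 in total ChREBP WT samples, and the total ChREBP KO samples gave 4.29, 4.65, 4.43, 4.46 and 4.52. The difference between WT groups was -4.83 ± 0.82 (SE, adjusted p = 0.000322) for Cyp4a10 and -4.15 ± 0.68 (SE, adjusted p = 0.000235) for Cyp4a31, and neither gene's WT groups overlapped. Cyp4a10 and Cyp2j5 were detected on 3 of the 7 total ChREBP WT arrays, so their differences rest partly on arrays without detection. Cyp2j5 had levels of 9.33, 11.13 and 12.79 in ChREBPβ WT, 6.73, 9.09 and 11.59 in ChREBPβ KO and 4.19, 5.05 and 8.64 in total ChREBP WT samples, and the total ChREBP KO samples gave 4.18, 4.49, 4.17, 4.17 and 4.41. The WT groups of Cyp2j5 were apart by -5.49 ± 0.72 (SE, adjusted p = 2.99e-05). Among the Cyp4f genes, which hydroxylate leukotrienes and long fatty acids, Cyp4f14 differed by -4.12 ± 0.72 (SE, adjusted p = 0.000386) and Cyp4f15 by -2.91 ± 0.64 (SE, adjusted p = 0.00257). Cyp4f14 differed in sign from the other 31 tracking members in the total ChREBP line, where its levels were 5.86 to 9.19 in WT and 6.81 to 7.72 in KO samples and the difference was 0.18 ± 0.79 (SE, adjusted p = 0.945).

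**Figure D3:**
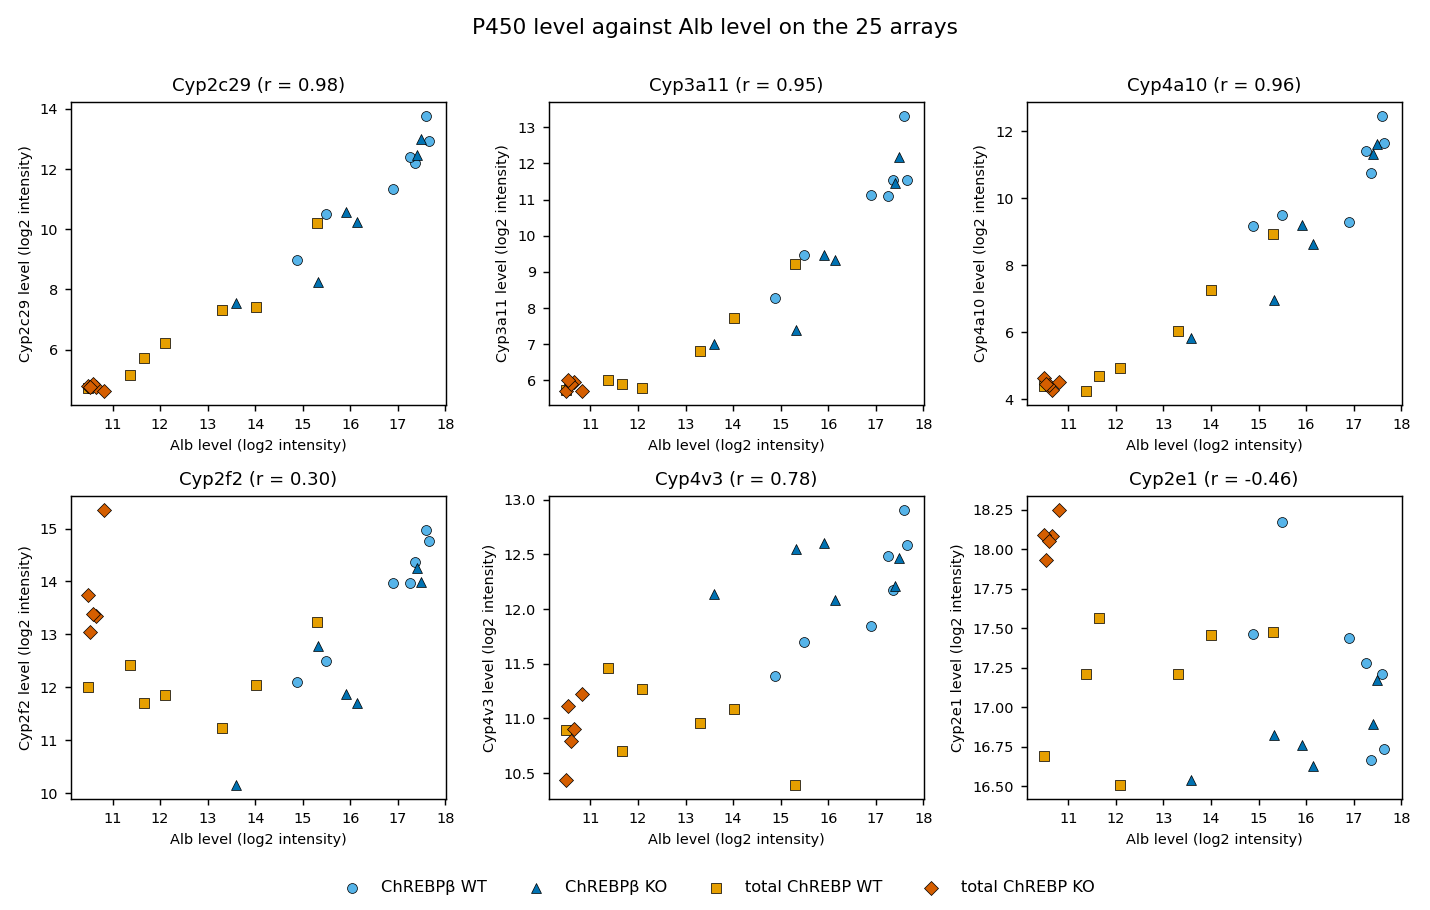
Log2 levels of Cyp2c29, Cyp3a11, Cyp4a10, Cyp2f2, Cyp4v3 and Cyp2e1 (y axes) against the log2 level of Alb (x axes), 1 point per array, coloured by group. The first 3 rise with Alb (r of 0.98, 0.95 and 0.96), though not all of them at its low end. Cyp3a11 lies at 5.75 to 6.02 in the total ChREBP WT samples with Alb of 10.49 to 12.09. It lies at 5.70 to 6.03 in the total ChREBP KO samples. Cyp4a10 was detected on 3 of the 7 total ChREBP WT arrays and on no total ChREBP KO array. Cyp2f2 follows Alb in the ChREBPβ line (r = 0.93) and not in the total ChREBP line (r = -0.34). Cyp2e1 lies at 17.93 to 18.25 in the 5 total ChREBP KO samples, where Alb is low.

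7 members lay between the classes. Cyp4v3, a fatty acid hydroxylase of many tissues, had a high r with Alb (0.78) but a residual r of 0.17, so it followed the lines more than Alb within them. Levels of Cyp4v3 (lowest, median and highest) were 11.39, 12.17 and 12.91 in ChREBPβ WT, 12.08, 12.34 and 12.60 in ChREBPβ KO and 10.39, 10.95 and 11.46 in total ChREBP WT pgWAT. For Cyp4v3 the total ChREBP KO samples gave 10.90, 10.43, 10.79, 11.11 and 11.22. The groups of 1 line lay at 1 level, and 1 total ChREBP WT sample reached the lowest ChREBPβ WT sample. The WT groups differed by -1.19 ± 0.20 (SE, adjusted p = 0.000347), with -1.46, -0.89, -0.81 and -1.45 by wash batch. The probe lies on chromosome 8 (chr8:46391395-46391454, mm9 build, minus strand). In the knockouts Cyp4v3 gave 0.19 ± 0.21 (SE, adjusted p = 0.856) for ChREBPβ and -0.08 ± 0.23 (SE, adjusted p = 0.911) for total ChREBP. The genes whose pattern over the 25 arrays was most like it were Serpinf1 (r = 0.94), Ptprk, Col18a1 and Hyi (0.93 each) and Pxdc1 (0.92).

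Cyp2j8 and Cyp2j13 formed a pair with an r of 0.97 over the arrays. The levels of Cyp2j8 were 10.20, 10.50 and 11.64 in ChREBPβ WT, 9.66, 9.93 and 10.77 in ChREBPβ KO and 9.78, 9.97 and 10.11 in total ChREBP WT samples, and the total ChREBP KO samples gave 10.002, 10.13, 10.05, 10.08 and 10.02. The WT groups of Cyp2j8 did not overlap and differed by -0.70 ± 0.18 (SE, adjusted p = 0.00779). Cyp2j13 had levels of 7.90, 8.22 and 9.02 in ChREBPβ WT, 7.27, 7.50 and 8.28 in ChREBPβ KO and 7.45, 7.70 and 7.85 in total ChREBP WT samples, and the total ChREBP KO samples gave 7.73, 7.88, 7.80, 7.67 and 7.73. The Cyp2j13 WT groups differed by -0.59 ± 0.16 (SE, adjusted p = 0.0123), also without overlap. The other kept Cyp2j13 probe gave -0.27 ± 0.14 (SE, adjusted p = 0.19) and did not pass the test. Cyp4a14, a close relative of Cyp4a10, had levels of 5.51, 6.22 and 7.38 in ChREBPβ WT, 4.87, 5.37 and 6.70 in ChREBPβ KO and 4.86, 5.22 and 5.41 in total ChREBP WT samples, and the total ChREBP KO samples gave 5.11, 5.15, 4.80, 4.76 and 5.13. The WT groups of Cyp4a14 differed by -1.09 ± 0.28 (SE, adjusted p = 0.00807), and did not overlap. Cyp2d34 gave -1.18 ± 0.30 (SE, adjusted p = 0.0077) and Cyp4f17 -0.17 ± 0.06 (SE, adjusted p = 0.0382).

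Cyp2r1 is the vitamin D hydroxylase that starts the hormone's activation. By the 1 probe read per gene, only Cyp2r1 among the 21 members that did not track Alb differed between the WT groups. A second probe of Cyp2c55, also among the 21, gave -0.38 (adjusted p = 0.0458 by limma). The Cyp2c55 probe read here gave -0.25 (adjusted p = 0.186). Levels of Cyp2r1 (lowest, median and highest) were 9.88, 10.13 and 10.66 in ChREBPβ WT, 9.90, 10.16 and 10.64 in ChREBPβ KO and 9.63, 9.81 and 10.103 in total ChREBP WT pgWAT. For Cyp2r1 the total ChREBP KO samples gave 9.96, 10.01, 10.18, 9.84 and 10.66. All groups overlapped. The WT difference was -0.38 ± 0.13 (SE, adjusted p = 0.0461), and it no longer passed the test under 4 of 13 other settings or without any 1 of 15 of the 25 arrays. In the wash batches it was -0.72, -0.28, -0.46 and -0.03. The probe lies at chr7:121693769-121693828 (mm9 build, minus strand).

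**Figure D4:**
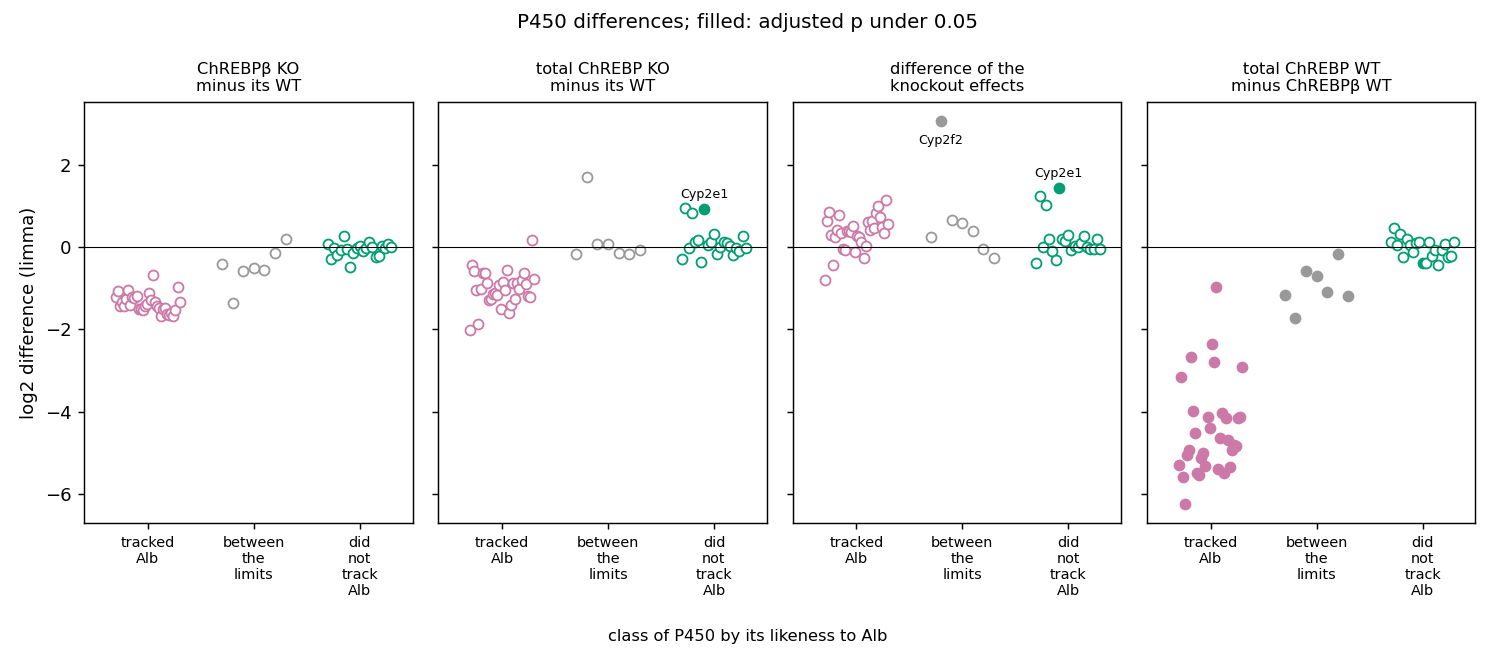
Log2 differences of the 60 tested P450 genes in the 4 comparisons, by class, with filled points for an adjusted p under 0.05. In the comparison of WT groups the 32 tracking members lie between -6.25 and -0.97. In the knockout comparisons the filled points are Cyp2e1 in total ChREBP KO, and Cyp2e1 and Cyp2f2 in the difference of the knockout effects.

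In total ChREBP KO pgWAT, Cyp2e1 was the 1 member that passed the test, and it was higher than in WT. Cyp2e1 oxidises ethanol, acetone and other small molecules. Levels of Cyp2e1 (lowest, median and highest) were 16.66, 17.28 and 18.17 in ChREBPβ WT, 16.54, 16.79 and 17.17 in ChREBPβ KO and 16.51, 17.21 and 17.57 in total ChREBP WT pgWAT. For Cyp2e1 the total ChREBP KO samples gave 18.08, 18.09, 18.05, 17.93 and 18.25. All 5 knockout samples exceeded all 7 WT samples of their line, as in 4.42% of all genes tested, and 1 ChREBPβ WT sample (18.17) lay within the knockout range. The difference was 0.93 ± 0.21 (SE; 95% confidence interval 0.49 to 1.37; adjusted p = 0.00618), or 1.91-fold. It was 0.62, 0.85, 1.27 and 1.0 in the 4 wash batches. The probe lies at chr7:147960628-147960687 (mm9 build, plus strand), and a second Cyp2e1 probe gave 1.29 ± 0.25 (adjusted p = 0.00176). The comparison called 9.41% of all genes tested and 5.76% as higher. With no filter on dim probes, 1 of all 70 members was called, against 6.08% of all genes.

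The rise of Cyp2e1 was measured in samples that were among the lowest in Alb of the series. With the Alb level as a covariate it was 0.98 (adjusted p = 0.0189). The residual r of Cyp2e1 with Alb was 0.10. Of 8 adipocyte markers 2 were also higher in total ChREBP KO, Plin1 by 0.41 (adjusted p = 0.00303) and Cidec by 0.40 (adjusted p = 0.01), and a median of 0.19 over the 8. Their part in the Cyp2e1 difference was not tested. The genes most like Cyp2e1 over the 25 arrays were Aldh6a1 (r = 0.90) and Acadsb (0.89), enzymes of branched-chain amino acid breakdown in mitochondria, followed by Pdpr (0.86), Samm50 (0.85) and Ppp4r4 (0.84).

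No tracking member passed the test in total ChREBP KO. Cyp2a12 did pass it with the processed signal, and Cyp2d11 and Cyp2d13 with only the groups of this comparison in the model. In the main model the Cyp2d13 probe read gave -0.56 (adjusted p = 0.363), and its other kept probe gave -0.07 (adjusted p = 0.947). The class had a median difference of -1.02 (-2.02 to 0.18), and 31 of the 32 differences were below 0, in samples in which Alb differed by -1.94. This too describes genes sorted by Alb and is no support for a difference. The all-gene median was 0.02. In 6 of them, Cyp2c40, Cyp2d10, Cyp2d11, Cyp2d12, Cyp2d13 and Cyp4a31, the KO samples lay below all WT samples, as did 3.2% of all genes tested. For example, Cyp2d10 had levels of 10.88, 13.37 and 15.02 in ChREBPβ WT, 9.22, 11.56 and 14.18 in ChREBPβ KO and 7.74, 8.42 and 10.88 in total ChREBP WT samples, and the total ChREBP KO samples gave 7.38, 7.26, 7.14, 7.31 and 7.15. The Cyp2d10 difference was -1.5 ± 0.77 (SE, adjusted p = 0.286). 11 tracking probes were not detected on any total ChREBP KO array, so that their differences are given as bounds. From group means, with WT means taken as measured, the bounds ran from at least 1.24-fold lower (Cyp2c40) to at least 3.95-fold lower (Cyp2a12). Neither difference passed the test by limma (adjusted p = 0.742 and 0.197). Cyp2c40 was detected on only 3 of the 7 WT arrays. With bounds in place the class median was again -1.02. The 95% intervals of tracking members had a median width on either side of 1.67.

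The 21 members that did not track Alb had a median difference of 0.06 (-0.36 to 0.94) in total ChREBP KO, with intervals reaching a median of 0.29 to either side. Beside that of Cyp2e1, the largest differences among these 21 were those of Cyp2b10 and Cyp2b9, which had an r of 0.99 with each other. Cyp2b10 is induced in liver through the receptor Nr1i3. The levels of Cyp2b10 were 6.13, 7.39 and 9.21 in ChREBPβ WT, 6.75, 7.09 and 7.98 in ChREBPβ KO and 6.67, 7.81 and 9.52 in total ChREBP WT samples, and the total ChREBP KO samples gave 8.29, 9.34, 8.74, 8.52 and 9.41. The KO samples lay in the upper part of the WT range, and the difference was 0.94 ± 0.53 (SE, adjusted p = 0.347). Cyp2b9 gave 0.83 ± 0.46 (SE, adjusted p = 0.332). Their probes share no run longer than 10 bases. Neither passed the test.

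The values of the other members outside the Alb class were as follows in total ChREBP KO against WT. Cyp2s1 had levels of 10.33, 11.18 and 11.27 in ChREBPβ WT, 9.93, 10.71 and 11.70 in ChREBPβ KO and 10.14, 10.52 and 11.06 in total ChREBP WT samples, and the total ChREBP KO samples gave 10.84, 9.57, 10.34, 10.62 and 10.11. All Cyp2s1 groups overlapped, and the difference was -0.18 ± 0.31 (SE, adjusted p = 0.838). Cyp4b1, which oxidises fatty acids in lung and other tissues, had levels of 11.24, 11.81 and 12.66 in ChREBPβ WT, 11.36, 11.73 and 11.95 in ChREBPβ KO and 11.33, 11.52 and 11.75 in total ChREBP WT samples, and the total ChREBP KO samples gave 11.45, 11.72, 11.64, 11.41 and 11.53. The KO range of Cyp4b1 lay within the WT range, with a difference of 0.03 ± 0.19 (SE, adjusted p = 0.962). Cyp2d22, the Cyp2d member that did not track Alb, was measured at 8.54, 8.71 and 9.19 in ChREBPβ WT, 8.33, 8.67 and 9.29 in ChREBPβ KO and 8.62, 8.84 and 9.12 in total ChREBP WT samples, and the total ChREBP KO samples gave 8.56, 8.65, 8.50, 8.33 and 8.39. The Cyp2d22 difference was -0.36 ± 0.14 (SE, adjusted p = 0.123). Cyp4f13 had levels of 9.50, 9.81 and 9.98 in ChREBPβ WT, 9.26, 9.64 and 9.72 in ChREBPβ KO and 9.48, 9.60 and 9.99 in total ChREBP WT samples, and the total ChREBP KO samples gave 9.46, 9.49, 9.43, 9.46 and 9.56. The Cyp4f13 difference was -0.21 ± 0.08 (SE, adjusted p = 0.124).

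The epoxygenases Cyp2j6 and Cyp2j9 also stood outside the Alb class. Cyp2j6 had levels of 8.93, 9.19 and 9.39 in ChREBPβ WT, 8.86, 9.05 and 9.33 in ChREBPβ KO and 9.10, 9.29 and 9.47 in total ChREBP WT samples, and the total ChREBP KO samples gave 9.19, 9.54, 9.34, 9.31 and 9.46. Cyp2j9 had levels of 9.66, 10.06 and 10.52 in ChREBPβ WT, 9.88, 9.96 and 10.26 in ChREBPβ KO and 9.77, 10.16 and 10.34 in total ChREBP WT samples, and the total ChREBP KO samples gave 10.33, 10.37, 10.29, 10.32 and 10.0995. On 6 arrays Cyp2j9 missed detection, and so did Cyp2s1 on 4 and Cyp4f16 on 8, only through the flag for a spot that was not found. Both Cyp2j genes overlapped between all groups, with total ChREBP KO differences of 0.06 ± 0.09 (SE, adjusted p = 0.819) and 0.13 ± 0.12 (SE, adjusted p = 0.651). Cyp4f18, the leukotriene hydroxylase of neutrophils, gave -0.09 ± 0.14 (SE, adjusted p = 0.82). Cyp4x1, a brain P450, was dim, with levels of 4.73, 4.96 and 5.02 in ChREBPβ WT, 4.80, 4.88 and 5.17 in ChREBPβ KO and 4.87, 5.06 and 5.12 in total ChREBP WT samples, and the total ChREBP KO samples gave 4.87, 5.19, 5.02, 4.92 and 5.08. The Cyp4x1 difference was -0.03 ± 0.07 (SE, adjusted p = 0.893). The Cyp2u1 probe with the repeat gave 0.12 ± 0.11 (SE, adjusted p = 0.618), and the other Cyp2u1 probes gave 0.17 and -0.05. Cyp2ab1, Cyp2b19, Cyp2c55, Cyp2c66, Cyp2t4, Cyp2w1, Cyp4f16 and Cyp4f39 had differences between -0.30 (Cyp2ab1) and 0.28 (Cyp4f39), and none passed the test.

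In ChREBPβ KO pgWAT, 0 of the 60 members passed the test by limma, where 0.00777% of all genes tested did. At an unadjusted p under 0.05 there were 13 of the 60 members, where 9.72% of all genes tested reached it, and 7 of the 13 were tracking members, which share 1 pattern. With no filter, 0 of 70 members were called, against 0% of all genes. All 32 tracking members had a lower mean than WT, with a median difference of -1.41 (-1.68 to -0.68) and an all-gene median of 0.02. These genes were sorted by 1 pattern over the arrays and are not separate observations. Their confidence intervals reached a median of 1.58 to either side, and Alb itself differed by -0.75 ± 0.72. Cyp3a57 had the lowest adjusted p among the tracking members, with -1.64 ± 0.65 (SE, adjusted p = 0.44). Members that did not track Alb had a median difference of -0.03 (-0.50 to 0.26), and their intervals reached a median of 0.27 to either side. Cyp2e1 was the member at -0.50, with an SE of 0.20 and an adjusted p of 0.456, and its second probe gave -0.62 (adjusted p = 0.426). Cyp2j13 gave -0.58 ± 0.17 (SE, adjusted p = 0.328) and Cyp2j8 -0.52 ± 0.19 (SE, adjusted p = 0.397).

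The difference of the knockout effects (total ChREBP KO against its WT, minus ChREBPβ KO against its WT) was called for 2 members, Cyp2e1 and Cyp2f2, both higher, where 3.5% of all genes tested were called and 1.34% as higher. With no filter 1 of 70 was called, against 2.21% of all genes. For Cyp2e1 the difference was 1.43 ± 0.29 (SE, adjusted p = 0.00534), with 0.70, 1.74, 1.74 and 1.76 by wash batch, and 1.92 (adjusted p = 0.00177) on the second probe. This comparison shares its samples with the knockout comparisons above, whose WT samples also serve in the comparison of the lines, and it tests whether the knockouts differ, not which of them moved.

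Cyp2f2 is known from club cells of the airway, where it activates naphthalene, and from liver. Levels of Cyp2f2 (lowest, median and highest) were 12.10, 13.97 and 14.96 in ChREBPβ WT, 10.15, 12.32 and 14.26 in ChREBPβ KO and 11.24, 12.001 and 13.23 in total ChREBP WT pgWAT. For Cyp2f2 the total ChREBP KO samples gave 13.34, 13.75, 13.39, 13.04 and 15.36. In the ChREBPβ line the KO samples were spread toward lower values, and in the total ChREBP line the KO samples lay at the upper end of the WT range or above it. The knockout effects were -1.35 ± 0.57 (SE, adjusted p = 0.474) for ChREBPβ and 1.71 ± 0.60 (SE, adjusted p = 0.0824) for total ChREBP, neither of which passed the test, and their difference was 3.06 ± 0.82 (SE, adjusted p = 0.0414). By wash batch this difference was 2.47, 5.97, 5.14 and 1.03. The WT groups differed by -1.73 ± 0.54 (SE, adjusted p = 0.0255). Within the ChREBPβ line Cyp2f2 followed Alb (r = 0.93), within the total ChREBP line it did not (r = -0.34), and over groups the residual r was 0.71. The probe lies at chr7:27918570-27918629 (mm9 build, plus strand).

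With the Alb level as a covariate, the Cyp2f2 difference was 3.73 (adjusted p = 0.000643), and its total ChREBP KO effect was 2.81 (adjusted p = 0.000868). This model fits 1 Alb slope to all 25 arrays, whereas Cyp2f2 followed Alb in the ChREBPβ line and not in the total ChREBP line. A common slope cannot describe both lines, so no conclusion is drawn from these values. The call on the difference was lost under 3 of 13 other settings, with no filter on dim probes (adjusted p = 0.055), without the pair of arrays farthest from the median Alb level (adjusted p = 0.0834) and in a model with a further blocking term, as well as without any 1 of 19 of the 25 arrays (adjusted p of 0.017 to 0.0963 over all 25). The genes most like Cyp2f2 over the 25 arrays were Cth (r = 0.91), Gsta3 (0.88), Hacl1 and Apoc1 (0.85 each) and Kyat3 (0.84).

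**Figure D5:**
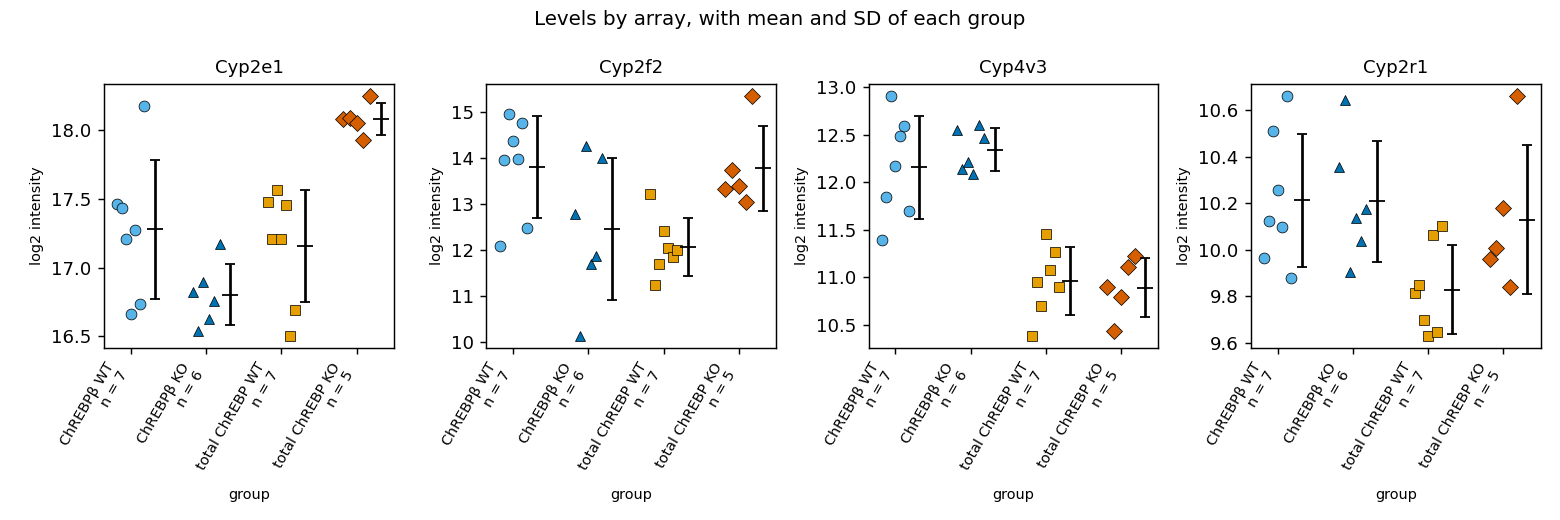
Log2 levels of Cyp2e1, Cyp2f2, Cyp4v3 and Cyp2r1 in each of the 25 samples by group, with the mean and SD of each group. The 5 total ChREBP KO samples of Cyp2e1 (17.93 to 18.25) lie above all 7 WT samples of their line (16.51 to 17.57), and Cyp4v3 separates the lines rather than the genotypes.

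The enzymes that serve P450s and the receptors that control them were described from a list of 35 genes, of which 34 were tested (Cyp7a1 did not pass the filter). In total ChREBP KO pgWAT 6 were higher and 1 was lower, where 9.41% of all genes tested were called, and in ChREBPβ KO 0 were called, where 0.00777% of all genes were. Alas1, which catalyses the first step of heme synthesis, had levels of 14.87, 15.20 and 15.51 in ChREBPβ WT, 14.97, 15.21 and 15.41 in ChREBPβ KO and 15.03, 15.15 and 15.25 in total ChREBP WT samples, and the total ChREBP KO samples gave 15.95, 15.82, 15.84, 15.93 and 16.16. The KO samples lay above all others, and the difference was 0.81 ± 0.08 (SE, adjusted p = 7.19e-07). The soluble epoxide hydrolase Ephx2, which opens the epoxides made by Cyp2c and Cyp2j enzymes, was higher by 0.60 ± 0.13 (adjusted p = 0.00419). The electron carriers Cyb5b and Cyb5r3 were higher by 0.35 (adjusted p = 0.00798) and 0.27 (adjusted p = 0.029), whereas the reductase Por gave -0.08 (adjusted p = 0.642). The receptors Nr1h3 and Rxra were higher by 0.40 (adjusted p = 0.00327) and 0.31 (adjusted p = 0.0371). Cyp27a1, a mitochondrial sterol hydroxylase, was lower by -0.74 ± 0.17 (adjusted p = 0.0077).

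The difference of the knockout effects was called for 2 genes of this list, Alas1 (0.81, adjusted p = 0.00013) and Ppara (1.58 ± 0.37, adjusted p = 0.0169), where 3.5% of all genes tested were called. Between the WT groups 13 were lower in the total ChREBP line and 3 higher, where 22.2% of all genes tested were called and 8.74% as lower. Among the lower were liver regulators of P450s, namely Hnf4a (-3.10, adjusted p = 0.0133), the xenobiotic receptor Nr1i2 (-2.35, adjusted p = 0.00124), the bile acid receptor Nr1h4 (-2.11, adjusted p = 0.00052) and Ppara (-1.25, adjusted p = 0.00104), and P450s of other families such as Cyp7b1 (-3.24, adjusted p = 4.48e-05) and Cyp1a2 (-2.97, adjusted p = 0.000483). The sterol demethylase Cyp51 was higher (0.88, adjusted p = 6.32e-05), as were Cyb5b and Cyp1b1.

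With the Alb level as a covariate in the model, the counts of members changed. Between the WT groups 2 members were lower in place of 40, Cyp3a25 and Cyp3a57 (-1.53 each, adjusted p = 0.0285 and 0.0442), with 7% of all genes called. Cyp4v3 gave -0.99 (adjusted p = 0.0872) and Cyp2r1 -0.33 (adjusted p = 0.413). In total ChREBP KO 3 members were higher, Cyp2e1, Cyp2f2 and Cyp4f14 (2.03, adjusted p = 0.00156), with 6.28% of all genes called. The difference of the knockout effects was called for 14 members, all higher and 11 of them of the tracking class, with 4.35% of all genes called. In ChREBPβ KO the count was 0. Alb itself differed between the WT groups, as given above. The tracking members had been sorted by this same Alb level, and 11 of them were not detected on any total ChREBP KO array. Their median total ChREBP KO difference was 0.85 in this model, against -1.02 without Alb. Calls of tracking members in this model, that of Cyp4f14 included, therefore describe the sorted genes and support nothing further. No conclusion is drawn from those of Cyp2f2 either, because the model takes 1 Alb slope for both lines and Cyp2f2 followed Alb in only 1 of them.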

How the data were processed

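Expression was measured with 1-colour SurePrint G3 mouse arrays. The deposited scanner files hold spot intensities extracted by the authors with Feature Extraction 10.10.1.1, not yet normalised between arrays, and the deposited series matrix holds the authors' log2 values, used only as an alternative. From the median intensities, spots not found, not positive and significant, or not well above background received weight 0 and counted as not detected. Further, 1478 outlier spot values were set to missing. Spots were kept when detected on 21 of the 25 arrays or on 75% of the arrays of 1 group (42315 of 59305), thresholds scaled to these 25 arrays from the authors' rule. They were quantile normalised and averaged by the median over replicated probes, as in the authors' methods. The log2 levels of 39619 probes for 25750 genes were tested with limma 3.58.1 in R 4.3.3, with group and wash batch as terms (18 residual degrees of freedom) and Benjamini-Hochberg adjustment over all probes. An adjusted p under 0.05 was called. Each of the 4 wash batches held all 4 groups. The 15 slides held 1 or 2 arrays each.

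Groups came from the sample titles. Samples are separate mice as far as the labels tell, so p-values measure the spread between these samples. The members and the lists of genes were chosen with earlier results of these data known. Members called in any comparison (at most the 25 of lowest adjusted p), preset members and the 3 nearest the r threshold on each side are given by value. 1 gene that fits the naming pattern is not reported here. Probes were named through RefSeq accessions (32994), current symbols (10224), older symbols (520) or the array's own names (12867). Probe coordinates are those of the files (mm9), and whether a probe lies in an exon or UTR is not given in the sources used here. The script was checked on simulated data. The alternatives were other background correction, scaling, filters, probe rules, array weights, slide or replicate as a block, the wash batch left out, Alb as a covariate, fewer samples and each array left out.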

Additional observations from a re-analysis of the deposited data

Results flagged for a closer look

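In 160 groups of values (40 members in 4 groups), 9 held 1 array far from the others, 7 of them high and 2 low, where chance gives about 1 in 20 groups. Replicate 2 of total ChREBP WT, which had the highest Alb level of its group (15.3), was the high array for Cyp2a4 (8.94 against 5.38 to 6.40 in the others), Cyp2c37 (8.96 against 5.34 to 6.59), Cyp2c40 (6.97 against 4.36 to 4.98), Cyp2c68 (8.50 against 4.74 to 6.18) and Cyp2c69 (8.47 against 4.47 to 6.12). These tracking members share 1 pattern and are not separate observations. The same array was low for Cyp2j9 (9.77 against 10.13 to 10.34). Replicate 2 of total ChREBP KO was high for Cyp2a12 (5.23 against 4.43 to 4.56) and Cyp2a5 (5.80 against 5.25 to 5.31). Cyp2a12 was not detected on any total ChREBP KO array, so its values there differ between arrays without detection. Replicate 7 of total ChREBP KO was low for Cyp2j9 (10.0995 against 10.29 to 10.37).

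The knockout effects differed between the lines by an interaction test for Cyp2e1 (1.43, adjusted p = 0.00534) and for Cyp2f2 (3.06, adjusted p = 0.0414).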

How the results depend on the processing

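In ChREBPβ KO the count of members called was 0 under all 14 alternatives and without each array. In total ChREBP KO it was 1, but 2 with the processed signal, 6 with array quality weights, 3 with Alb as a covariate and 5 with only the groups of the comparison, and 1 to 3 with 1 array left out (3 without total ChREBP KO replicate 7, and 2 without KO replicate 1, WT replicate 2 or WT replicate 5). For the difference of the knockout effects it was 2, but 1 with no filter, 0 with the replicate block, 14 with Alb as a covariate, 1 without the pair of arrays farthest from the median Alb level (chosen after seeing the data) and 1 to 2 with 1 array left out. Between the WT groups it was 40, but 14 with only probes of full weight on all arrays (21 members tested), 2 with Alb as a covariate and 36 to 40 with 1 array left out. The count of members tracking Alb was 32, and 29 to 35 under 10 alternatives. The cause of these changes was not tested.

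With Alb as a covariate, the difference between the WT groups turned its sign in 8 of the 40 members called, among them Cyp2f2 to 0.58 (adjusted p = 0.635), Cyp2c29 to 0.032 (adjusted p = 0.976) and Cyp3a11 to 0.12 (adjusted p = 0.926). The call on Cyp2f2 between the WT groups was also lost without ChREBPβ WT replicate 2, 3 or 7 or total ChREBP WT replicate 4 (adjusted p of up to 0.0631). Its call on the difference of the knockout effects held without ChREBPβ WT replicate 1 or 8, ChREBPβ KO replicate 4 or 8, total ChREBP WT replicate 2 or total ChREBP KO replicate 4, and was lost without any other array. Cyp2e1 in total ChREBP KO was 0.80 to 1.11 under 13 alternatives (adjusted p of 0.00301 to 0.0344) and 0.82 to 1.03 with 1 array left out. Its difference of effects was 1.26 to 1.67, past the threshold except with the replicate block (adjusted p = 0.0568).

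Replicate numbers did not pair the samples: deviations of same-numbered samples had r from -0.43 to 0.38, over 0.1 in 1 of 5, 1 of 4 and 3 of 6 pairs. With the replicate block the counts were 0, 1, 0 and 40, and the difference of the Cyp2f2 effects was 3.13 (adjusted p = 0.173). Missed detection limits the tracking members in total ChREBP KO, where 11 were not detected on any array. It also limits them in total ChREBP WT, where 7 were detected on at most 3 of 7 arrays.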
